A study of Caenorhabditis elegans with 12 samples.

Results

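The mitochondrially encoded complex I genes are the 7 genes of the Caenorhabditis elegans mitochondrial chromosome (MtDNA) that encode subunits of NADH:ubiquinone oxidoreductase. They are nduo-1, nduo-2, nduo-3, nduo-4, nduo-5, nduo-6 and ndfl-4. They were chosen by name and role among the 36 genes of MtDNA in a count table of 46903 genes, and each was followed in 12 single oocytes. The oocytes came from untreated wild-type adults, with 4 at each of positions -5, -3 and -1, and the series asks how transcripts differ with the age of the oocyte. The oocyte next to the spermatheca is -1, the oldest, and -5 is the youngest of the 3. The labels name neither the animals nor a collection or sequencing batch, and they give no age beyond adult.

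Complex I takes electrons from NADH, passes them to ubiquinone and pumps protons across the inner mitochondrial membrane. Its membrane arm is built around subunits made inside the organelle, while the rest of the complex is encoded in the nucleus, translated in the cytosol and imported. Mitochondrial DNA is transcribed into long precursors that are cut at tRNAs to free the messages. Worm oocytes carry the large store of mitochondria and mitochondrial DNA that the embryo inherits from its mother.

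All 7 genes lie on the plus strand of MtDNA, in the coordinates of the count table, for which no source used here names a genome build. In map order nduo-6 spans bases 113 to 549, ndfl-4 549 to 783 and nduo-1 1763 to 2635. Further along, nduo-2 spans 3389 to 4269, nduo-4 6506 to 7808, nduo-3 11356 to 11691 and nduo-5 11691 to 13272. RefSeq (WBcel235) places the genes ND6, ND4L, ND1, ND2, ND4, ND3 and ND5 over at least 94.4% of those spans, in that order. Neighbours overlap by 1 base for nduo-6 with ndfl-4 and for nduo-3 with nduo-5, by 2 bases for nduo-1 with atp-6, and by 28 bases for nduo-2 with a tRNA gene that had no reads, so reads lying over both genes could be lost. The counting used no strand, so antisense reads cannot be told apart from reads of the genes. Nuclear copies of mitochondrial sequence were not examined here.

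Libraries held 8358019 to 20446599 counts. The summed level of 8 oocyte markers was 13652 to 19069 in -5 oocytes, 6804 to 16450 in -3 oocytes and 9201 to 12009 in -1 oocytes, in CPM (counts scaled to the TMM-adjusted library size). Replicates 1 and 3 of oocyte -3 had the fewest genes with a read, 8814 and 8289 beside 9387 to 10054 elsewhere, so the ratios of the complex I genes that involve -3 are also given without them. The summed level of 9 muscle markers was 305 to 839 CPM in -5 oocytes, 188 to 1095 in -3 oocytes and 847 to 1053 in -1 oocytes. Sheath and spermatheca markers, 7 genes, summed to 196 to 912 CPM in -5, 116 to 198 in -3 and 147 to 267 in -1 oocytes. Intestine markers, 9 genes, summed to 85.9 to 299 CPM in -5, 65.8 to 133 in -3 and 46.0 to 292 in -1 oocytes. Hypodermis markers, 5 genes, summed to 92.2 to 462 CPM in -5, 58.6 to 192 in -3 and 56.2 to 85.4 in -1 oocytes, with dpy-7 at 0 in all oocytes. Sperm markers, 5 genes, summed to at most 7.61 CPM in any oocyte, with gsp-4 at 0 in all. The part of other cells' RNA in the results was not tested.

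Each library is 1 cell and a position has no replicate animals in the labels, so positions are compared by their values and no p-value is given. A gene's level at a position is its reads in the 4 oocytes, added up, over their added scaled library sizes. Its exact Poisson interval at 95% covers the counting of reads only. Reads after PCR are not independent molecules, so the interval understates the counting error of molecules. All values are relative to the rest of the library, and the amount of RNA per oocyte was not measured.

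The 7 genes together took 0.599% of all counts at -5, 0.818% at -3 and 0.537% at -1. Their share ran from 0.525% to 0.710% among -5 oocytes, from 0.613% to 1.13% among -3 oocytes and from 0.453% to 0.627% among -1 oocytes. The -1 range overlaps both others. Exact binomial intervals were narrow beside this spread, as for replicate 1 of oocyte -3 at 1.13% (1.13% to 1.14%). Within the reads of the 12 MtDNA protein genes, the 7 held 64.5% at -5, 64.6% at -3 and 64.1% at -1. Single oocytes ran from 56.2% to 71.5%, and the 3 positions overlapped.

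The gene nduo-6 encodes ND6, a small subunit of the membrane arm, and held 59.2% to 75.7% of the reads of the 7 genes in every oocyte. It was read at 3368, 4655, 5302 and 2811 CPM in the 4 oocytes at -5, at 10401, 4490, 4644 and 5472 CPM at -3, and at 3734, 4794, 3300 and 3045 CPM at -1. Replicate 1 of oocyte -3 lay far above the other 11 oocytes, whose ranges at the 3 positions overlapped. The level was 3868 CPM at -5 (3851 to 3885), 6288 CPM at -3 (6268 to 6307) and 3634 CPM at -1 (3619 to 3649). The log2 ratio was -0.79 for -1 against -3 and 0.70 for -3 against -5. Without replicates 1 and 3 of oocyte -3 they were -0.49 and 0.40. For -1 against -5 it was -0.09, and it turned positive without replicate 4 of -1 or without replicate 2 or 3 of -5.

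Next to it on the map, ndfl-4 encodes ND4L, another small membrane subunit. It was read at 547, 789, 786 and 296 CPM at -5, at 1215, 639, 621 and 712 CPM at -3, and at 530, 642, 463 and 409 CPM at -1. Its highest oocyte was again replicate 1 of -3, and its lowest was replicate 4 of -5. The log2 ratio was -0.67 for -1 against -3 and 0.49 for -3 against -5, or -0.45 and 0.27 without the oocytes of -3 that stand apart. For -1 against -5 it was -0.18, and 0.0033 without replicate 2 of -5.

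The gene nduo-3 encodes ND3, a small subunit that in mammals has a loop near the quinone site. It was read at 93.0, 123, 121 and 155 CPM at -5, at 264, 121, 108 and 107 CPM at -3, and at 110, 131, 92.0 and 90.05 CPM at -1. Apart from replicate 1 of -3, its oocytes at the 3 positions overlapped. The log2 ratio was -0.27 for -1 against -5. It was -0.51 for -1 against -3, or -0.09 without replicate 1 of -3. Between -3 and -5 it was 0.24, or -0.18 without that oocyte, so its direction there rests on 1 cell. Without both oocytes of -3 that stand apart, the 2 values were -0.11 and -0.16.

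The gene nduo-1 encodes ND1, the membrane subunit that helps to form the quinone-binding channel. It was read at 281, 320, 348 and 318 CPM at -5, at 834, 368, 188 and 405 CPM at -3, and at 202, 227, 158 and 180 CPM at -1. Every -1 oocyte was below every -5 oocyte, while replicate 3 of -3 fell among the -1 oocytes. The level at -1 was 193 CPM, against 316 CPM at -5, a log2 ratio of -0.71 that stayed between -0.77 and -0.66 when any 1 oocyte was left out. Against -3 it was -1.22, or -0.74 without replicate 1 of -3 and -1.02 without both that stand apart. The ratio of -3 to -5 was 0.51, or 0.03 without replicate 1 of -3 and 0.31 without both.

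The subunits ND2, ND4 and ND5 resemble bacterial sodium/proton antiporters and hold proton channels of the pump. ND2 is encoded by nduo-2, read at 251, 309, 348 and 446 CPM at -5, at 576, 392, 293 and 434 CPM at -3, and at 110, 271, 204 and 194 CPM at -1. Every -1 oocyte was below every -3 oocyte, and replicate 2 of -1 was above the lowest -5 oocyte only. The level was 181 CPM at -1, against 348 CPM at -5 and 425 CPM at -3, and the log2 ratios were -0.94 and -1.23. Replicate 1 of -1 was the lowest of all, and without it they were -0.68 and -0.97. The ratio of -3 to -5 was 0.29. Without the oocytes of -3 that stand apart, -1 against -3 gave -1.21 and -3 against -5 gave 0.27.

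ND4 is encoded by nduo-4, read at 123, 126, 146 and 225 CPM at -5, at 218, 202, 110 and 175 CPM at -3, and at 76.7, 133, 128 and 98.2 CPM at -1. The positions overlapped in each pair. The log2 ratio was -0.67 for -1 against -5, or -0.36 without replicate 4 of -5, and -0.78 for -1 against -3. The ratio of -3 to -5 was 0.11, and -0.01 both without replicate 1 of -3 and with libraries scaled by their total count only. Without the oocytes of -3 that stand apart, -1 against -3 gave -0.87 and -3 against -5 gave 0.20.

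ND5 is encoded by nduo-5, read at 458, 460, 676 and 502 CPM at -5, at 681, 601, 171 and 516 CPM at -3, and at 276, 408, 270 and 294 CPM at -1. Every -1 oocyte was below every -5 oocyte, and replicate 3 of -3 was the lowest of all 12. The level was 305 CPM at -1, against 515 CPM at -5, a log2 ratio of -0.76 that stayed between -0.87 and -0.64 when any 1 oocyte was left out. Against -3 it was -0.67, or -0.96 without replicate 3 of -3. The ratio of -3 to -5 was -0.09, or 0.20 without replicate 3 of -3, and it was positive without replicate 3 of -5 too. Without the oocytes of -3 that stand apart, -1 against -3 gave -0.85 and -3 against -5 gave 0.09, so the direction of that second value turned.

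**Figure D1:**
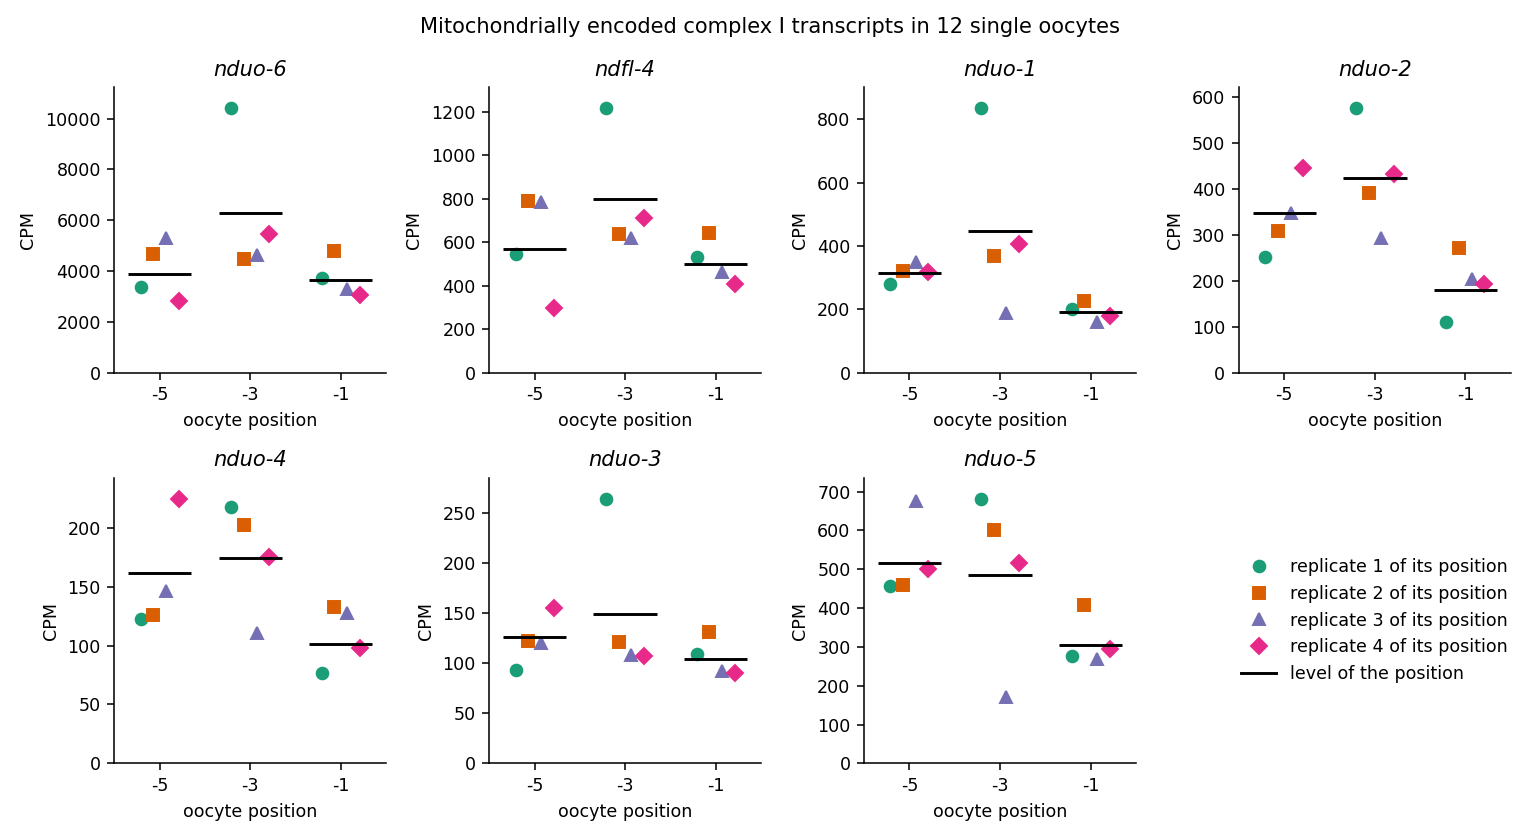
Level of each of the 7 genes in CPM in every oocyte, by position from -5 to -1, with 1 marker per replicate and a line for the level of the position; each panel has its own axis from 0. Replicate 1 of oocyte -3 is the highest point in every panel but that of nduo-4, and all -1 oocytes lie below all -5 oocytes for nduo-1 and nduo-5.

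Counted together, all 7 genes were lower at -1 than at -5, where 51% of the 8718 genes kept were lower. The median of their log2 ratios was -0.67, beside -0.01 for all genes kept. None was lower by over 2-fold (7.41% of all genes kept), or 1 of them, nduo-2, without replicate 2 of -1 or replicate 1 of -5. All -1 oocytes were below all -5 oocytes for 2 of the 7, nduo-1 and nduo-5 (2.89% of all genes kept). The summed level was 5019 CPM at -1, against 5902 CPM at -5, a log2 ratio of -0.23, which is smaller than most single ratios because nduo-6 holds most of the reads. Without nduo-6 the other 6 summed to 1385 CPM at -1, against 2034 CPM at -5. Their oocytes overlapped, from 1265 to 1811 CPM at -1 and from 1753 to 2424 CPM at -5.

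Against -3, all 7 genes were lower at -1 too (48.7% of all genes kept), with a median log2 ratio of -0.78. Those lower by over 2-fold were nduo-1 and nduo-2, 2 of 7 (9.51%), and each left that count without 1 oocyte, nduo-1 without replicate 1 of -3 and nduo-2 without replicate 1 of -1. In 1 of the 7, nduo-2, all -1 oocytes were below all -3 oocytes (2.99%). The summed level was 5019 CPM at -1, against 8766 CPM at -3, a log2 ratio of -0.80, or -0.57 without the oocytes of -3 that stand apart. Replicate 1 of -3 alone moved this value to -0.48 when left out.

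At -3, 6 of the 7 were higher than at -5 (49.2% of all genes kept), with a median log2 ratio of 0.29. None was higher by over 2-fold (7.99%), and in none did the oocytes separate (2.86% of genes kept with all -3 above all -5, 3.15% with all below). The summed level gave 0.57, or 0.33 without the oocytes of -3 that stand apart and 0.25 without replicate 1 of -3 alone. Without that oocyte the single ratios were 0.35 for nduo-6, 0.22 for ndfl-4, 0.11 for nduo-2 and 0.03 for nduo-1. They were -0.01 for nduo-4, -0.18 for nduo-3 and -0.30 for nduo-5. The count of higher genes and the median of 0.29 thus depend on 1 cell. The 3 comparisons share oocytes, so their values are not independent of each other. In the authors' deposited table, made from the same counts, log2 fold changes of the 7 genes for -1 against -5 ran from -0.81 for nduo-2 to -0.14 for nduo-6. For -1 against -3 the authors' deposited table gave -1.25 for nduo-1 and -1.14 for nduo-2.

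**Figure D2:**
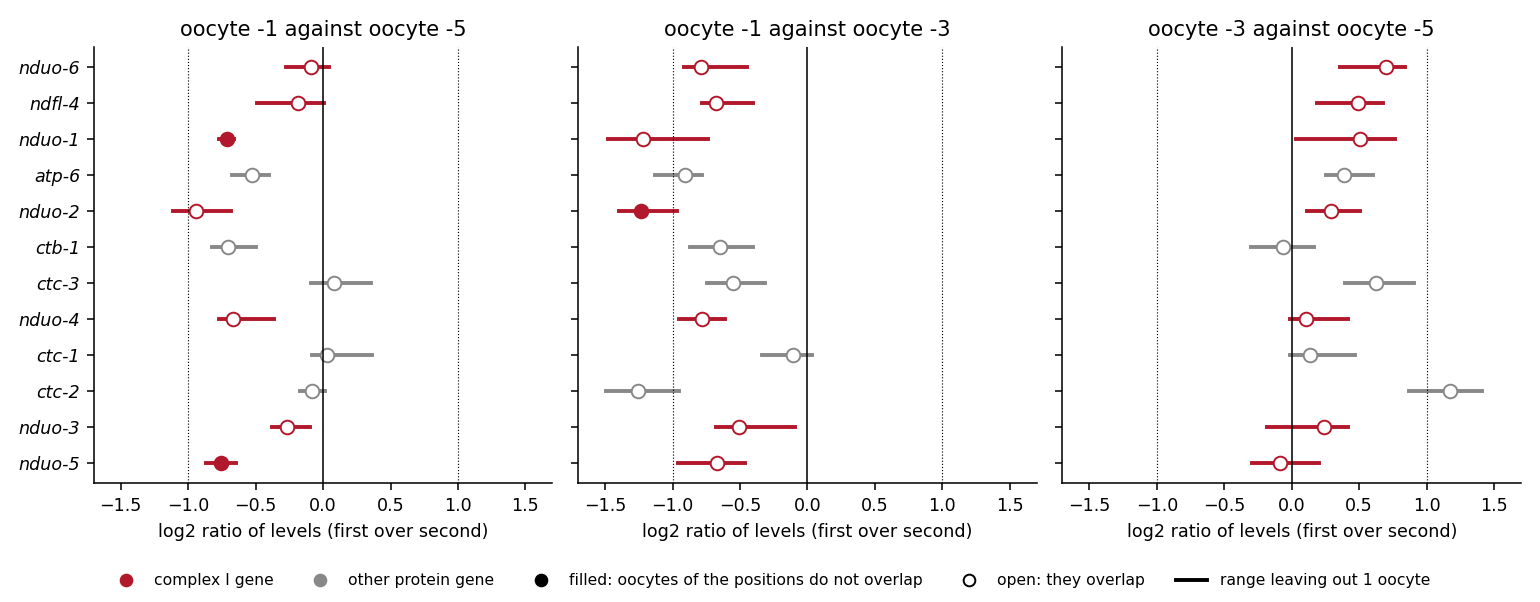
Log2 ratio of levels for the 12 MtDNA protein genes in map order, in 3 comparisons, with the first-named position over the second; bars give the range when 1 oocyte is left out, filled points mark genes whose oocytes do not overlap, and dotted lines mark 2-fold. For -1 against -5, nduo-1 at -0.71 and nduo-5 at -0.76 are filled, while nduo-6 at -0.09 lies near 0.

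Replicate 4 of oocyte -5 had the highest level of that position for nduo-2, nduo-3 and nduo-4 and the lowest for nduo-6 and ndfl-4. It also had the highest sheath and spermatheca markers of all oocytes, at 912 CPM, where its 3 companions at -5 had 196 to 231 CPM, and hypodermis markers at 462 CPM. The part of these markers' cells in its values was not tested. Without it, the log2 ratio of the summed level for -1 against -5 was -0.37. Without it nduo-1 stood at -0.71 and nduo-5 at -0.78, and nduo-2 at -0.73.

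Per kilobase of gene, the order of levels was steady at its ends. The kit reads near the 3' ends of transcripts, so a level per length is a rough scale. At -5, -3 and -1, nduo-6 had 8851, 14388 and 8316 CPM per kb, and ndfl-4 was the second with 2418, 3398 and 2129 CPM per kb. The lowest was nduo-4, with 124, 134 and 77.9 CPM per kb. Without division by length nduo-3 was the lowest at -5 and -3, with 126 and 149 CPM beside 162 and 174 CPM for nduo-4. At -1 nduo-4 had 102 CPM and nduo-3 had 104 CPM. Per kb, at each position no oocyte of nduo-6 reached down to those of ndfl-4, and none of ndfl-4 reached those of the third gene.

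Between these ends nduo-1, nduo-2, nduo-3 and nduo-5 stood at 326 to 395 CPM per kb at -5, 306 to 513 at -3 and 193 to 311 at -1. Neighbours in that order overlapped over the oocytes except nduo-3 over nduo-1 at -1, 268 to 391 against 182 to 260 CPM per kb. The oocytes of nduo-4 lay below those of nduo-5, its neighbour, at -5 and -1 and overlapped them at -3. The level of nduo-6 per kb was 3.66 times that of ndfl-4 at -5, 4.23 times at -3 and 3.91 times at -1, although the 2 genes adjoin on the map.

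**Figure D3:**
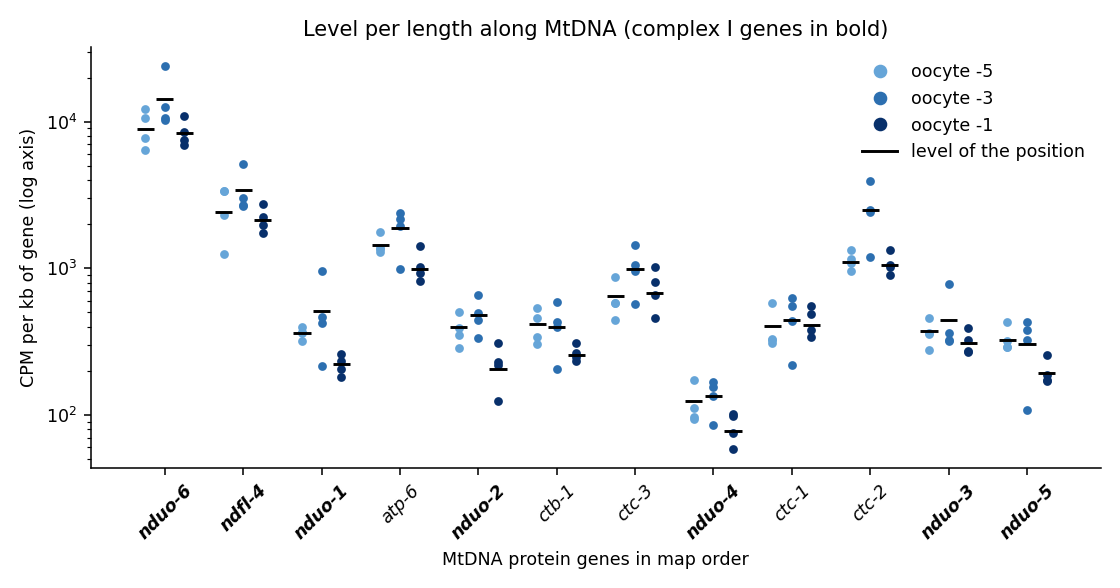
Level per kilobase of gene, on a log axis, for the 12 MtDNA protein genes in map order, with each oocyte as a point, positions -5, -3 and -1 from left to right within a gene, and a line for the level of the position. The gene nduo-6 is highest at each position and nduo-4 lowest.

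Shares within the mitochondrial messages need no scaling between libraries. Of the reads of the 12 protein genes, nduo-1 held 2.46% at -1, against 3.45% at -5, with ranges of 2.08% to 2.72% and 3.11% to 3.76%. The share of nduo-2 was 2.31% at -1, against 3.80% at -5, with ranges of 1.43% to 2.93% and 3.11% to 5.27%. That of nduo-5 was 3.9% at -1, against 5.63% at -5, with ranges of 3.54% to 4.45% and 4.80% to 6.04%. In these 3 genes all -1 oocytes were below all -5 oocytes, which held for no other of the 12 protein genes. The 3 are thus themselves the 25% of the 12. Shares of 1 total are tied, so a fall in some goes with a rise in others.

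In the other 4 genes the shares at -1 and -5 overlapped. For nduo-6 the share was 46.4% at -1, against 42.2% at -5, and for ndfl-4 it was 6.39% at -1, against 6.21% at -5. For nduo-3 it was 1.33% at -1, against 1.37% at -5, and for nduo-4 1.3% at -1, against 1.77% at -5. On the log2 scale the ratio of shares was -0.44 for nduo-4, beside -0.48 for nduo-1. At -3 none of the 7 separated from either neighbour position, and of the 12 protein genes 1 was lower in all oocytes for -1 against -3 and 1 for -3 against -5 (8.33% each). The share of nduo-5 was 3.57% at -3, against 5.63% at -5, where replicate 2 of -3 at 4.99% overlapped the -5 oocytes.

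**Figure D4:**
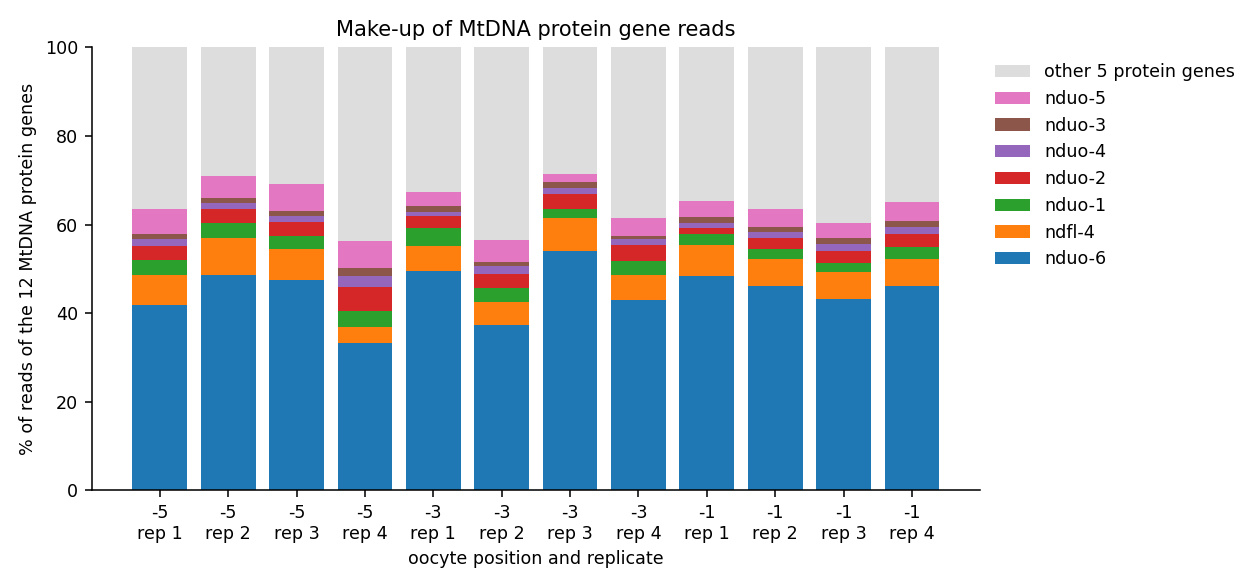
Make-up of the reads of the 12 MtDNA protein genes in each oocyte, in percent, from -5 to -1, with the 7 complex I genes in colour and the other 5 protein genes together in grey. In every oocyte nduo-6 is the largest coloured block, and replicate 4 of -5 has the smallest, 33.3%.

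The other 5 protein genes of MtDNA encode cytochrome b (ctb-1), cytochrome oxidase subunits (ctc-1, ctc-2, ctc-3) and an ATP synthase subunit (atp-6). Their log2 ratios for -1 against -5 were -0.71 for ctb-1, -0.53 for atp-6, -0.08 for ctc-2, 0.03 for ctc-1 and 0.08 for ctc-3. They summed to 3254 CPM at -5, 4808 CPM at -3 and 2807 CPM at -1. As CPM, the oocytes of -1 and -5 separated for none of them. For -3 against -5, ctc-2 had a log2 ratio of 1.17, or 1.15 without the oocytes of -3 that stand apart, above that of every complex I gene, of which nduo-6 had the highest at 0.70. For -1 against -3, all 5 were lower at -1, as were all the complex I genes. Their log2 ratios were -1.25 for ctc-2, -0.91 for atp-6, -0.64 for ctb-1, -0.55 for ctc-3 and -0.11 for ctc-1. The oocytes overlapped in each, and ctc-1 reached 0.04 when 1 oocyte was left out. The lower level at -1 than at -3 was thus shared by the protein genes of MtDNA. A difference between the 2 groups of genes was not tested.

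The large rRNA of the mitochondrial ribosome varied more among the oocytes of a position than the summed 7 genes did, at each position. It was read at 1478, 2639, 1499 and 1594 CPM at -5, at 1780, 2859, 758 and 2775 CPM at -3, and at 603, 2810, 2764 and 1833 CPM at -1. Replicate 1 of -1 had 4.66 times less of it than replicate 2 of -1, while their complex I sums were 5038 and 6605 CPM. Over the 12 oocytes, Pearson's r of its log2 level with those of the 7 genes lay between 0.05 for nduo-3 and 0.52 for nduo-4.

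Among the 7 genes r over the 12 oocytes ran from 0.20 for ndfl-4 with nduo-4 to 0.93 for nduo-6 with ndfl-4, with a median of 0.65 over 21 pairs. Without replicate 1 of -3 the median was 0.46, and that of nduo-6 with ndfl-4 was 0.92. These values share libraries and their scaling, so they only describe the oocytes. The 2 adjoining genes nduo-6 and ndfl-4 kept a read ratio of 5.90 to 9.51 over the 12 oocytes. For the adjoining pair nduo-5 and nduo-3 the ratio ran from 1.57 to 5.6.

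Among the 5171 nuclear genes averaging 20 CPM or more, the 5 most like the summed level of the 7 genes over the 12 oocytes were fbf-2 (r 0.95), F25B5.6 (0.93), K07A1.1 (0.91), eco-1 (0.91) and Y54G11A.3 (0.90). All 5 were highest in replicate 1 of -3, and r without it was 0.83 to 0.92. The level of fbf-2, which encodes a germline RNA-binding protein, was 31.7 CPM at -5, 52.9 CPM at -3 and 25.1 CPM at -1. For 34 nuclear complex I genes r ran from -0.47 (nduf-9) to 0.74 (nduf-2.2) with a median of 0.19, beside a median of -0.13 over all 5171.

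Nuclear complex I genes were listed by symbol (nuo, ndua, ndub, nduc, nduf, ndus, nduv and ndab genes, with gas-1 and lpd-5), and all 35 were measured. Subunits under other names would be missed. The summed level of the 35 was 6115 CPM at -5, 6036 CPM at -3 and 6162 CPM at -1. The median log2 ratio was 0.07 for -1 against -5, with 21 higher (49% of all genes kept) and 14 lower, beside -0.67 for the 7 mitochondrial genes. Against -3 it was 0.03 at -1, with 20 higher (51.3%) and 15 lower. Between -3 and -5 it was -0.08, with 15 higher and 20 lower (50.8%). These medians lie near 0 and changed sign when single oocytes were left out.

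No nuclear gene of the list differed by over 2-fold except nduf-6, which was higher at -3 than at -5. Over all genes kept, 5.35% were higher by that much for -1 against -5, 8.36% for -1 against -3 and 7.99% for -3 against -5, and 9.1% were lower for -3 against -5. It was read at 26.1, 36.1, 37.4 and 23.7 CPM at -5, at 75.9, 49.9, 87.6 and 39.1 CPM at -3, and at 41.4, 55.7, 32.2 and 40.1 CPM at -1. All -3 oocytes were above all -5 oocytes, which held for 1 of the 35 genes of the list and for 2.86% of all genes kept. The log2 ratio was 1.07, or 0.85 at the lowest when 1 oocyte was left out. Without the oocytes of -3 that stand apart it was 0.53, under 2-fold, and ndua-2 then passed it in the other direction, at -1.02. The gene nduf-6 was also the highest of the list for -1 against -5, at 0.50.

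Genes are named here from the 34 with a mean of at least 20 CPM. For -1 against -5 the next highest were gas-1, which encodes a core subunit near the quinone site, at 0.32 and nduf-11 at 0.27. The lowest were ndua-2 at -0.61, ndub-8 at -0.26 and nduv-2, which encodes a core subunit of the NADH-oxidizing module, at -0.25. For -1 against -3 the highest were nduf-11 at 0.48, nduf-9 at 0.44 and ndub-11 at 0.40, and the lowest nduf-6 at -0.57, nuo-3 at -0.43 and ndub-3 at -0.33. Without the oocytes of -3 that stand apart, nduf-6 was at -0.03, nuo-3 at -0.16 and ndub-3 at 0.17, while nduf-11 was at 0.32, nduf-9 at 0.52 and ndub-11 at 0.40. For -3 against -5 the next highest were ndub-3 at 0.41 and ndab-2 at 0.33, and the lowest ndua-2 at -0.51, ndua-7 at -0.44 and nduf-9 at -0.37. In this comparison, without the same oocytes, ndub-3 was at -0.09, ndab-2 at 0.10, ndua-7 at -0.68 and nduf-9 at -0.45. Under the limit of 20 CPM, nuo-5 was at -0.62 for -1 against -3 and 0.56 for -3 against -5, or -0.81 and 0.75 without those oocytes, and it is named because its values were seen. Apart from nduf-6 for -3 against -5, the oocytes overlapped in each of these.

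Within 1 oocyte, the reads of the 7 mitochondrial genes over those of the 35 nuclear genes are free of library scaling. This ratio was 0.847, 1.1, 1.05 and 0.882 in the 4 oocytes at -5, 1.78, 1.26, 1.19 and 1.39 at -3, and 0.819, 1.02, 0.824 and 0.690 at -1. Every -3 oocyte was above every oocyte at -5 and -1, and the -1 and -5 oocytes overlapped. From summed reads it was 0.965 at -5, 1.45 at -3 and 0.814 at -1. The log2 ratio was -0.83 for -1 against -3 and 0.59 for -3 against -5, or -0.72 and 0.48 without the oocytes of -3 that stand apart. The same ratio for the other 5 protein genes of MtDNA gave -0.81 for -1 against -3 and 0.58 for -3 against -5, with overlapping oocytes. Of these 5, only ctc-2 separated -3 from -1 (4.79% of all genes kept) and from -5 (3.74%). As CPM the sums of the 7 genes overlapped, at 6135 to 14189 at -3, 4752 to 7726 at -5 and 4310 to 6605 at -1. The nuclear sums had a median of 5504 CPM at -3, beside 6104 at -5 and 6198 at -1. The ratio to nuclear complex I was chosen after the values of the genes had been seen.

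On the same scale, relative to nuclear complex I, 4 of the 7 genes were lower in all -1 oocytes than in all -3 oocytes, namely nduo-6, ndfl-4, nduo-1 and nduo-2 (4.79% of all genes kept). For -1 against -5, nduo-1 and nduo-5 were lower in all oocytes (2.26%), and for -3 against -5 nduo-6 was higher in all (3.74%). Among the MtDNA protein genes outside complex I, ctb-1 alone was also lower at -1 than at -5 in all oocytes. It had 0.0427 to 0.0531 against 0.0568 to 0.111, with a log2 ratio of -0.72, the same as for nduo-1. Without nduo-6 the sum of the other 6 complex I genes was lower at -1 than at -5 in all oocytes. It was 0.203 to 0.279 against 0.290 to 0.360, with a log2 ratio of -0.57. As CPM the sums of these 6 overlapped. This sum was not planned, and it leaves out the gene whose ratio for -1 against -5 lay nearest to 0, nduo-6 at -0.10. No share over all genes was computed for such sums.

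**Figure D5:**
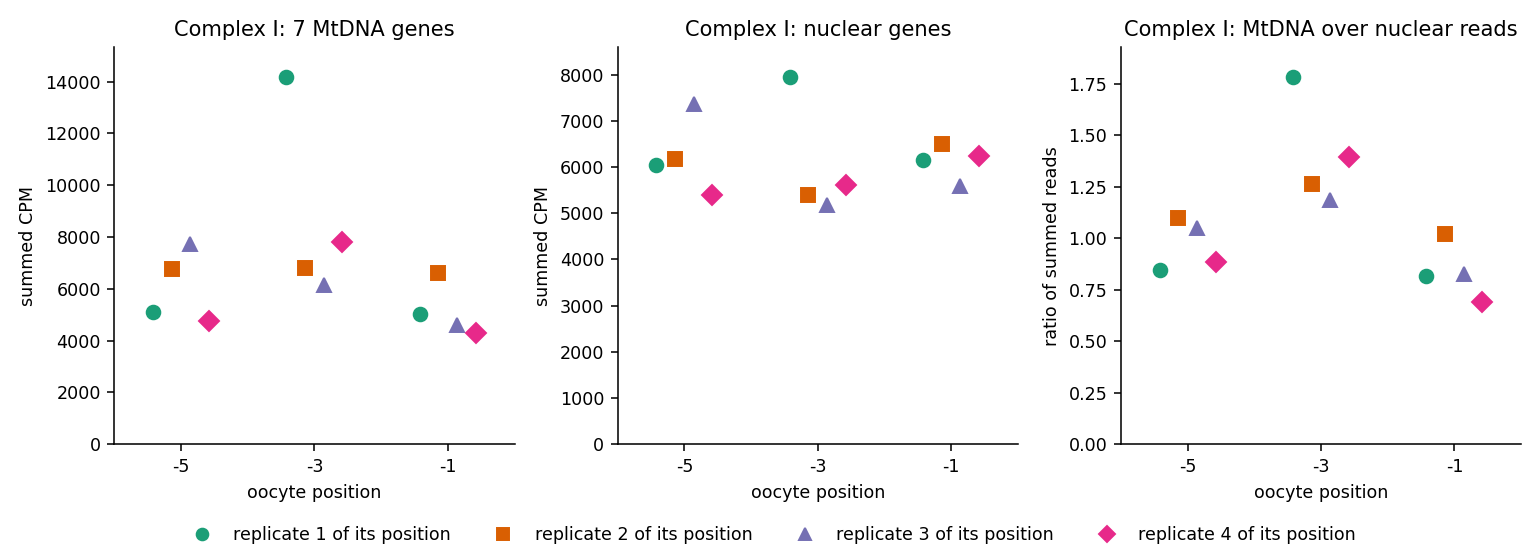
Summed CPM of the 7 mitochondrial genes (left), summed CPM of the nuclear complex I genes (middle) and the ratio of their reads within each oocyte (right), by position from -5 to -1, with 1 marker per replicate. The ratio lies between 1.19 and 1.78 in the -3 oocytes and at or below 1.1 in the others.

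Nuclear genes that copy or express mitochondrial DNA were read at low to middling levels. Of the 8 listed, 7 were in the table and 6 were kept. The TFAM homolog hmg-5, which packages mitochondrial DNA, stood at 179 CPM at -5, 216 CPM at -3 and 169 CPM at -1. Its log2 ratio was -0.35 for -1 against -3 and 0.27 for -3 against -5, or -0.01 and -0.07 without the oocytes of -3 that stand apart. The mitochondrial RNA polymerase gene rpom-1 stood at 62.5, 38.9 and 54.2 CPM at -5, -3 and -1, and a relation of rpom-1 to the complex I sum was not tested. Its -3 oocytes, 18.8 to 54.8 CPM, overlapped those at -5, 43.5 to 70.7 CPM. The log2 ratio for -3 against -5 was -0.68, or -0.62 without the oocytes that stand apart.

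The single-stranded DNA binding protein gene mtss-1 was read at 56, 44.1, 41.4 and 43.8 CPM at -1, all above 35.8, 39.1, 38.3 and 25.1 CPM at -5. Its log2 ratio was 0.51 for -1 against -5, where 2.64% of all genes kept had all -1 oocytes above all -5 oocytes. The LRPPRC homolog mma-1, whose human counterpart binds mitochondrial messages, stood at 173, 140 and 150 CPM at -5, -3 and -1. The tRNA processing enzyme gene hoe-1 stood at 223, 231 and 224 CPM at these positions.

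The DNA polymerase gene polg-1 stood at 11.4 CPM at -5, 13.2 CPM at -3 and 13.7 CPM at -1. Its -3 oocytes ran from 1.55 to 27.6 CPM, and without replicate 4 of -3 the log2 ratio for -1 against -3 was 1.0146 in place of 0.05 and that for -3 against -5 was -0.75 in place of 0.21. Without the oocytes of -3 that stand apart they were -0.79 and 1.05, so the sign of both depends on which -3 oocytes are used. The helicase gene twnk-1 had no read in any oocyte, which allows up to 0.146 to 0.336 CPM per library at 3 counts.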

How the data were processed

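Each oocyte was lysed fresh and turned into a library with the SMART-seq v4 3' DE kit, per the labels' protocols. The deposited counts are whole reads of each gene from STAR and featureCounts (1.5.3 in the submitters' processing notes, 1.6.4 in the file header) on WormBase WS271, with no strand option and no normalization, per the file headers. Reads were trimmed with cutadapt 1.18, per the submitters' processing notes. The authors' deposited DESeq2 1.32.0 tables give a mean signal and a log2 fold change per gene, used only where named. From the counts, genes were filtered (8718 of 46903 kept, all 7 complex I genes among them) and libraries scaled by TMM (factors 0.798 to 1.17) with edgeR 4.0.16 in R 4.3.3. Tables and figures were made with Python 3.11.15. Correlations used log2(CPM + 1).

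The 7 genes and the lists were chosen with earlier results of these data known. Named were the 7 genes, the other genes of MtDNA for proteins and rRNA, the 3 highest and 3 lowest nuclear complex I ratios among genes of at least 20 CPM, the measured genes of mitochondrial DNA upkeep and expression, and the 5 most alike nuclear genes. Of the gene identifiers, 44029 had a symbol in the reference annotation, and pnpt-1 was not matched. Since each library is 1 oocyte and no animals are named, no test between positions was run. Dixon's ratio only marks single oocytes that lie far from the others of a position. Alternatives were DESeq2 1.42.0 size factors, total counts, other filters, mean log2 values, libraries without MtDNA reads, and leaving out oocytes. Sequences were not used here.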

Additional observations from a re-analysis of the deposited data

Results flagged for a closer look

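Replicate 1 of oocyte -3 lay apart from the other 3 oocytes of its position for 3 of the 7 genes by Dixon's ratio of gap to range, above the critical value at 95% for 4 values. For nduo-6 the ratio was 0.834, with 10401 CPM in that oocyte and 5472 CPM in the next. For ndfl-4 it was 0.846, with 1215 CPM against 712 CPM. For nduo-3 it was 0.912, with 264 CPM against 121 CPM. Chance flags about 1 in 20 groups, and 24 were examined. All 3 flags come from 1 library and share its scaling, so they do not count as separate groups. This library also had the lowest TMM factor, 0.798, and 8814 genes with a read, and their part in its values was not tested.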

How the results depend on the processing

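No paired analysis was possible because the labels name no animals and the replicate numbers only name oocytes. The summed log2 ratio for -1 against -5 (-0.23) was -0.16 with total counts and -0.24 relative to nuclear complex I, and -0.37 to -0.12 when 1 oocyte was left out. For -1 against -3 (-0.80) it was -0.82 with DESeq2 size factors, -0.61 with total counts, -0.82 with genes of at least 20 CPM, -0.70 with mean log2 values, -0.57 without the oocytes of -3 that stand apart, -0.83 relative to nuclear complex I, and -0.95 to -0.48 leaving out 1 oocyte. For -3 against -5 (0.57) the same settings gave 0.58, 0.45, 0.58, 0.47, 0.33 and 0.59, and 0.25 to 0.71 leaving out 1 oocyte. The summed direction was the same in each of these settings. The count of genes lower by over 2-fold was 0 to 1 for -1 against -5, 1 to 2 for -1 against -3 and 0 for -3 against -5 when 1 oocyte was left out.

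The median of the nuclear complex I genes for -1 against -5 (0.07) was 0.14 with total counts and 0.020 with mean log2 values, and -0.0077 to 0.069 leaving out 1 oocyte. For -1 against -3 (0.03) it was 0.017 with DESeq2 size factors, 0.23 with total counts, 0.065 with mean log2 values and 0.21 without the oocytes that stand apart, and -0.024 to 0.23 leaving out 1 oocyte. For -3 against -5 (-0.08) the same settings gave -0.068, -0.20, -0.10 and -0.20, and -0.21 to 0.051 leaving out 1 oocyte. Total counts moved the median of all genes kept to 0.21 for -1 against -3 and -0.13 for -3 against -5, and the nuclear median moved with it. The median share of counts over the 12 oocytes (0.620%) was 0.637% with scaled totals and 64.4% of the reads of MtDNA protein genes.

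Single-gene directions that turned were those of nduo-6 and ndfl-4 for -1 against -5 (up to 0.05 and 0.0033), and of nduo-4, nduo-3 and nduo-5 for -3 against -5 (to -0.01, -0.18 and 0.20). The cause was not tested. The part of sequencing depth was not tested, and the counting intervals cover only the reads. With 1 cell per library and no animals named, differences between positions cannot be told apart from differences between these cells.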

Other observations

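Of the MtDNA genes outside the comparisons, the small rRNA was read at 88.9 CPM at -5, 107 CPM at -3 and 75.4 CPM at -1, with -1 oocytes between 28.7 and 124 CPM. The 22 tRNA genes summed to 3.81 CPM at -5, 2.19 CPM at -3 and 2.53 CPM at -1, from 202, 138 and 153 reads.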
